A study of Homo sapiens with 20 samples.

Results

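The matrix metalloproteinases (MMPs), the ADAMs, the ADAMTSs and the tissue inhibitors of metalloproteinases (TIMPs) were followed across 4 groups of NTERT keratinocytes. The members are the protein-coding genes named MMP, ADAM or ADAMTS with a number, and TIMP1 to TIMP4. They number 65, namely 22 MMPs, 20 ADAMs, 19 ADAMTSs and 4 TIMPs, of the 19629 protein-coding genes matched in the count tables. NTERT is a human keratinocyte line immortalized with hTERT, kept in low calcium EpiLife medium with a keratinocyte growth supplement. By the study's methods, a confluent monolayer was differentiated with serum and added calcium before HDW. A separate culture of the unwounded cells is not described. WT cells and GCN2KO cells were each left unwounded or harvested 6 h after high-density wounding (HDW), with 5 replicates in each of the 4 groups. GCN2KO cells were an early-passage pool edited with CRISPR/Cas9 at EIF2AK4, the gene of the eIF2 kinase GCN2, and not a single clone. HDW scores a cell sheet with pipette tips along crossing lines, which places a large share of the cells next to a wound edge. The study speaks of its n as biological replicates, but neither labels nor methods say whether the 5 of a group came from separate cultures or experiments, and if not the p-values measure a spread that may be technical.

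MMPs are zinc endopeptidases made as inactive proenzymes. Most are secreted, and the membrane-type MMPs stay on the cell surface. Together they cut collagens, laminins and other matrix proteins, and a migrating epidermal sheet uses several of them to free itself from its substrate. ADAMs are membrane proteins, of which those with an intact active site shed growth factors, cytokines, adhesion molecules and Notch receptors from the surface, while others lack proteinase activity and act in adhesion. ADAMTSs are secreted relatives that cut proteoglycans, process procollagens or act on single substrates such as von Willebrand factor. TIMPs bind the active site of MMPs, and TIMP3 also blocks several ADAMs and ADAMTSs.

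The libraries held 14083504 to 34611570 counts on genes. EIF2AK4 had 4355 ± 149 normalized read counts (SD, n = 5) in WT and 894 ± 61.8 in GCN2KO unwounded cells, a log2 fold change of -2.28 ± 0.0649 (SE, adjusted p = 4.29e-13), and 4194 ± 129 and 874 ± 66.5 after HDW. A normalized read count is a count scaled by the library's TMM effective size to the mean size of the 20 libraries. The cells expressed each of 10 keratinocyte markers, among them KRT5, KRT14 and TP63. Their means were not equal between genotypes. KRT5 (233782 in WT and 329191 in GCN2KO unwounded cells), DSG3 and SFN had higher means in GCN2KO unwounded cells. KRT14 (63316 and 35134), COL17A1 (82941 and 32321), ITGB4 (50245 and 25992), TP63 (12016 and 8346), DSC3, PKP1 and TRIM29 had lower ones. PTPRC and TYROBP of leukocytes and TYR and SOX10 of melanocytes averaged under 1 normalized read count in each group. Means under 10 were found in 5 or 6 of 7 leukocyte markers by group, 4 of 7 melanocyte, 4 or 5 of 5 endothelial and 6 of 9 fibroblast markers, with COL1A1, FAP and DCN the fibroblast exceptions. The leukocyte sum ran from 63.6 to 95.4 in WT and from 94.4 to 137 in GCN2KO unwounded libraries, with CD68 the main part (means 48.5 and 94.8, and 68.4 and 98.3 after HDW). Of 11 suprabasal markers, 10 could be matched, and their summed level ran from 7280.3 to 9310.4 in WT and from 13378 to 19306 in GCN2KO unwounded libraries, and from 7055 to 9695 and from 16742 to 22675 after HDW. IVL made most of that shift (means 3126 in WT and 11072 in GCN2KO unwounded cells), while KRT1, TGM1, FLG and CALML5 had lower means in GCN2KO than in WT unwounded cells. The melanocyte sum, mostly MITF with some PMEL and MLANA, ran from 130.4 to 171 and from 351 to 517 in the unwounded groups. These marker shifts move with genotype, and their part in the results for the metalloproteinases was not tested. GCN2KO unwounded libraries 3 and 5 stood apart from the other 3 of their group on the third principal component (-0.49 and -0.448 against -0.219, 0.0969 and -0.00929). Fits without them were added after seeing the data, and their values are given where they change the call of a member. In bulk RNA of this kind, fewer cells making a transcript and less transcript per cell cannot be told apart.

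Of the 65 members, 35 were expressed, meaning that they passed edgeR's filter over the 20 libraries (about 0.31 CPM, a count scaled to library size, in at least as many libraries as a group holds). Another 20 were weak, with 2 to 143 counts summed over all libraries, and 10 were silent with no count at all. Among the 19629 protein-coding genes 67.6% were expressed by the same filter, against 53.8% of the members. All 4 TIMPs were expressed, as were 13 of 22 MMPs, 10 of 20 ADAMs and 8 of 19 ADAMTSs. The silent genes were MMP26, MMP27, ADAM2, ADAM7, ADAM18, ADAM30, ADAM33, ADAMTS5, ADAMTS10 and ADAMTS18. For these, 0 counts over all libraries allow a level of up to 0.00521 CPM, which covers counting error only. ADAM2, ADAM7, ADAM18 and ADAM30 are known from testis or epididymis, and MMP26 from endometrium and placenta. The weak genes were MMP1, MMP3, MMP8, MMP12, MMP16, MMP20, MMP21, ADAM11, ADAM12, ADAM20, ADAM28, ADAM29, ADAMTS2, ADAMTS4, ADAMTS8, ADAMTS9, ADAMTS14, ADAMTS16, ADAMTS19 and ADAMTS20. MMP20 (enamelysin), the tooth enamel proteinase, had 2 counts in all, both in GCN2KO unwounded libraries. Stromelysin-1, MMP3, had at most 5 counts in any library and none in the 5 GCN2KO unwounded libraries. Only 21 of the 35 expressed members lay above the filter's minimum in every library. The other 14 were MMP2, MMP7, MMP10, MMP11, MMP13, ADAM21, ADAM22, ADAM23, ADAM32, ADAMTS3, ADAMTS12, ADAMTS15, ADAMTS17 and TIMP4.

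Scaled by library size and by the length of merged exons (FPKM), the inhibitor TIMP3 and the membrane-type proteinase MMP14 stood highest. TIMP3 had 209 ± 8.97 (SD, n = 5) unwounded and 157 ± 4.96 after HDW in WT cells, and 106 ± 18.5 unwounded and 104 ± 21.7 after HDW in GCN2KO cells. MMP14 had 166 ± 5.53, 131 ± 9.05, 73.2 ± 7.6 and 67.1 ± 5.53 in the same order. The 22 MMPs summed to 231 ± 9.22 FPKM in WT unwounded cells, of which MMP14 made up 71.9% and MMP28 22.1%, and to 97.9 ± 10.6 in GCN2KO unwounded cells, with 74.8% and 16.8%. After HDW the sums were 194 ± 11.5 and 88 ± 9.11, so the unwounded and HDW ranges of each genotype (218 to 242 and 181 to 207 in WT, 86 to 115 and 78.9 to 102 in GCN2KO) overlapped in GCN2KO cells alone. MMP9 was the third MMP by level in WT HDW cells, at 5.7% of the sum. The membrane-type MMP15 held that place in the 3 other groups.

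The ADAM sum differed less, at 91.1 ± 2.22 and 96.1 ± 4.65 FPKM in WT and GCN2KO unwounded cells, but its leading member changed. ADAM15 led in WT unwounded cells with 41.5% of the sum, ahead of ADAM10 with 25.2% and ADAM9 with 20.9%. In GCN2KO unwounded cells ADAM9 led with 44.9%, ahead of ADAM15 with 29.3% and ADAM10 with 15.8%. The 19 ADAMTSs together reached 6.15 ± 0.529 and 5.43 ± 1.03 in the unwounded groups. ADAMTS7 led them in WT unwounded cells with 42.3%, and ADAMTS1 in GCN2KO unwounded cells with 72.5%. The 4 TIMPs summed to 243 ± 8.51 in WT and 166 ± 20.2 in GCN2KO unwounded cells. TIMP1 rose from 9.62% to 28.3% of that sum between them while TIMP3 went from 85.9% to 63.8%, shares given here as a description. Merged exons count every annotated isoform, and the long models of ADAM9, ADAM10 and ADAM17 lower their level per length against the shorter genes.

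**Figure D1:**
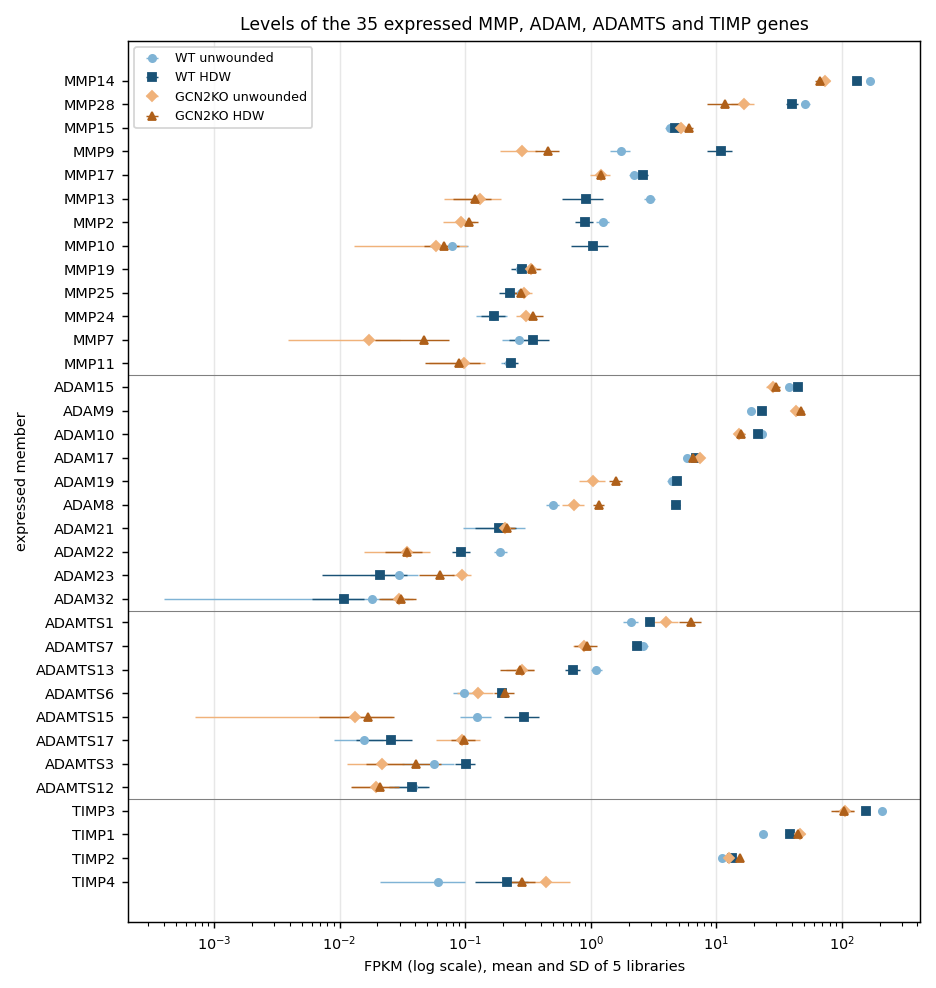
Level of each of the 35 expressed members in FPKM on a log axis, as the mean and SD of 5 libraries for each of the 4 groups, with lower bars that would pass 0 cut short. MMP14 and TIMP3 sit above the rest, and MMP2, MMP7, MMP9, MMP13, ADAM22 and ADAMTS15 lie lower in both GCN2KO groups than in both WT groups.

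The first comparison asked how the loss of GCN2 altered these genes before and after wounding. In unwounded cells, 3 of the 30 members tested were higher DE genes in GCN2KO and 12 were lower, where a gene counts as DE once its log2 fold change reaches 1 or -1 with an adjusted p no larger than 0.05 (edgeR's quasi-likelihood test, Benjamini-Hochberg). The background over the 15348 genes tested was 8.21% higher and 8.22% lower. After HDW, 4 of 32 members were higher and 15 lower, against a background of 7.1% and 7.83% of 15855 genes. By the adjusted p alone the counts were 10 higher and 16 lower unwounded and 7 higher and 19 lower after HDW, where the background is 33.4% and 33.1%, then 35.9% and 35.8%. Members above the filter's minimum in one group only had to differ to be tested, so these counts are a description. This holds most for MMP7, MMP10, ADAM23, ADAMTS3, ADAMTS15 and ADAMTS17, and their adjusted p values are a description too. Among the 21 members above it in every library, 1 was higher and 6 lower unwounded, and 3 were higher and 7 lower after HDW. MMP2, MMP7, MMP9, MMP11, MMP13, MMP28, ADAM19, ADAM22, ADAMTS7, ADAMTS13 and ADAMTS15 were lower DE genes in both states, and ADAM9 and ADAMTS17 higher DE genes in both. The median log2 fold change of the members tested was -0.51 unwounded and -0.78 after HDW, beside 0.00 over all genes tested in each. These medians include the members that passed the filter through one group, and are a description as well.

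Both gelatinases, which cut denatured collagens and collagen IV of basement membranes, were far lower in GCN2KO cells. MMP9 (ENSG00000100985, chr20:46008908-46016561, plus strand) had 129, 146, 90.6, 116 and 101 normalized read counts in the WT unwounded libraries and 19.3, 21.5, 10.5, 26.9 and 16 in the GCN2KO unwounded libraries. After HDW the WT libraries had 911, 524, 611, 796 and 835 and the GCN2KO libraries 40.0, 33.5, 30.2, 28.4 and 22. No GCN2KO library reached the lowest WT library in either state, and the log2 fold change was -2.61 ± 0.21 unwounded (adjusted p = 1.91e-08) and -4.55 ± 0.189 after HDW (adjusted p = 2.88e-10). Exons of MMP9 share 18.4% of their bases with SLC12A5-AS1, whose mean was 6.35 counts. MMP2 (ENSG00000087245, chr16:55389700-55506691, plus strand) had 199, 162, 170.3, 141 and 169.6 in WT unwounded and 14.8, 15.3, 8.77, 15.1 and 8.44 in GCN2KO unwounded libraries. Its HDW libraries had 150.1, 95.1, 119.8, 119 and 121 in WT and 18.3, 15.1, 15.1, 11.7 and 12.4 in GCN2KO cells. The genotypes were again separate, with log2 fold changes of -3.76 ± 0.178 (adjusted p = 6.11e-11) and -3.01 ± 0.163 (adjusted p = 2.17e-09).

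Of the collagenases, which make the first cut in fibrillar collagen, only MMP13 was tested in each comparison. MMP13, collagenase-3, lies at ENSG00000137745, chr11:102942995-102955732, minus strand. The WT unwounded libraries had 211, 239, 245, 225 and 278 normalized read counts and the GCN2KO unwounded libraries 14.8, 4.6, 16.7, 7.56 and 9.29. MMP13 was 21.8-fold lower in GCN2KO unwounded cells (log2 fold change -4.45 ± 0.19, adjusted p = 2.23e-11), the lowest log2 fold change among the 30 members tested there. After HDW it was 7.47-fold lower (log2 fold change -2.90 ± 0.324, adjusted p = 2e-06). MMP1 and MMP8 were too weak for the filter and are described with their neighbours on chromosome 11.

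The stromelysin MMP10 and the matrilysin MMP7 have broad matrix substrates, and MMP10 is known from migrating keratinocytes at wound edges. MMP10 was tested between genotypes after HDW alone, where it was 14.8-fold lower in GCN2KO cells (log2 fold change -3.89 ± 0.34, adjusted p = 1.75e-07). MMP7 had 7, 12, 15, 13 and 24 raw counts in WT and 2, 0, 1, 1 and 2 in GCN2KO unwounded libraries. After HDW these were 30, 22, 14, 33 and 31 and 4, 6, 1, 1 and 5. MMP7 was thus near the detection limit in GCN2KO cells, with a log2 fold change of -3.75 ± 0.417 unwounded (adjusted p = 7.95e-07) and -2.77 ± 0.388 after HDW (adjusted p = 1.85e-05). MMP11, stromelysin-3, had log2 fold changes of -1.23 ± 0.267 and -1.39 ± 0.243 (adjusted p = 0.000705 and 0.000144). Without GCN2KO unwounded libraries 3 and 5 its unwounded value was -0.84 (adjusted p = 0.00969), short of the fold threshold.

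The abundant MMP14, or MT1-MMP, is a surface collagenase that also activates proMMP2. The WT unwounded libraries had 21906, 22779.6, 21203, 22819 and 21503 normalized read counts of it and the GCN2KO unwounded libraries 11162, 9789, 8683, 10136 and 8851. After HDW the WT libraries had 16629, 18805, 18615, 16127 and 17036 and the GCN2KO libraries 8505, 9285, 8707, 8093 and 9981. Each GCN2KO library lay below each WT library of its state, by 2.26-fold on average unwounded (log2 fold change -1.18 ± 0.0764, adjusted p = 1.67e-09) and 1.96-fold after HDW (log2 fold change -0.97 ± 0.0616, adjusted p = 9.31e-09), where it missed the fold threshold except without GCN2KO HDW library 5 (-1.01). MMP17, or MT4-MMP, a GPI-anchored member, had log2 fold changes of -0.87 ± 0.124 and -1.12 ± 0.078, the second a DE gene. The other membrane-type MMPs went the other way or did not pass. MMP15 was slightly higher (log2 fold change 0.29 ± 0.0894 and 0.38 ± 0.0916, adjusted p = 0.00949 and 0.00201). MMP24 was higher by 0.82 ± 0.211 on the log2 scale unwounded (adjusted p = 0.00276) and by 1.01 ± 0.184 after HDW (adjusted p = 0.000201), a DE call that was lost in 5 of the 10 fits that left out one library, those without GCN2KO HDW 1 or 4 or WT HDW 1, 3 or 5 (log2 fold changes 0.91 to 0.99). MMP24 shares 22.1% of its exonic bases with 2 other genes, so its reads are uncertain. The larger overlap is with MMP24OS, which had a mean of 517 counts. MMP25 did not pass, with 0.12 ± 0.168 and 0.27 ± 0.169, nor did the secreted MMP19, with 0.28 ± 0.173 and 0.23 ± 0.154. Reads of both are uncertain as well. MMP25 shares 30.6% of its exonic bases with MMP25-AS1 (mean 41.5 counts), and MMP19 17.6% with TMEM198B (mean 108 counts). MMP28, or epilysin, a secreted MMP known from epidermis, was 3.08-fold and 3.42-fold lower in GCN2KO cells (log2 fold change -1.62 ± 0.116 and -1.77 ± 0.145, adjusted p = 4.75e-09 and 9.36e-08).

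**Figure D2:**
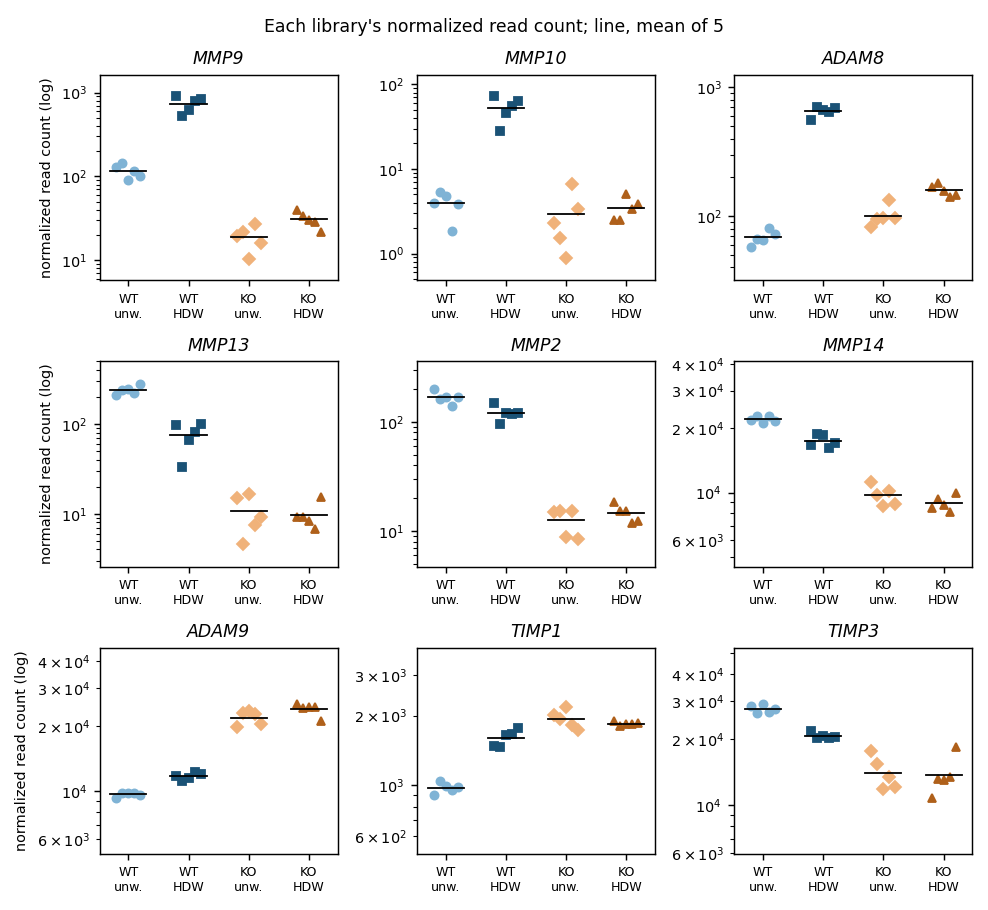
Normalized read count of 9 members in each library on log axes, by group, with a line at the mean of 5. MMP9, MMP10 and ADAM8 lie higher in the 5 WT HDW libraries than in any other library, MMP2, MMP13 and MMP14 lie lower and ADAM9 higher in GCN2KO cells, and TIMP1 is lowest in WT unwounded cells.

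Among the ADAMs with an intact active site, ADAM9 was higher and ADAM19 lower in GCN2KO cells. ADAM9 is a sheddase known to act on collagen XVII and other keratinocyte surface proteins. It had 9269, 9839, 9844, 9869.6 and 9630.1 normalized read counts in WT unwounded and 19885, 23043, 23416, 22814 and 20482 in GCN2KO unwounded libraries. After HDW it had 11748, 11157, 11543, 12243 and 12074 in WT and 25455, 24321, 24447, 24636 and 21242 in GCN2KO libraries. The genotypes were separate in both states, with log2 fold changes of 1.18 ± 0.0668 (adjusted p = 3.81e-10) and 1.03 ± 0.0505 (adjusted p = 9.88e-10). ADAM19 (ENSG00000135074, chr5:157395534-157575775, minus strand), a sheddase of neuregulins, went from 977 ± 82.8 to 232 ± 54.2 (SD, n = 5) between WT and GCN2KO unwounded cells, and the HDW groups had 1083 ± 56.8 and 351 ± 43. Its log2 fold changes were -2.09 ± 0.128 and -1.63 ± 0.0745 (adjusted p = 8.55e-10 and 6.06e-10). The genes within 5 Mb of ADAM19 had a median log2 fold change of 0.55 unwounded and 0.52 after HDW, and those of chromosome 5 medians of 0.35 and 0.36, so ADAM19 was lower where the median of its neighbours was higher.

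ADAM10, which releases Notch receptors and cadherins, and ADAM15 were modestly lower in GCN2KO cells, with log2 fold changes of -0.59 ± 0.07 and -0.42 ± 0.077 unwounded (adjusted p = 1.54e-06 and 0.000149) and -0.43 ± 0.0465 and -0.58 ± 0.0485 after HDW (adjusted p = 1.48e-06 and 1.14e-07). ADAM17, the sheddase of TNF and of EGF receptor ligands, was higher unwounded (0.35 ± 0.061, adjusted p = 0.000104) and did not pass after HDW (-0.08 ± 0.0407, adjusted p = 0.0931). Exons of ADAM17 share 11.7% of their bases with 3 other genes, of which IAH1 overlaps most. ADAM8, a leukocyte and wound-associated sheddase, was higher in GCN2KO unwounded cells (0.55 ± 0.147, adjusted p = 0.00372) and a lower DE gene after HDW (-2.02 ± 0.0814, adjusted p = 2.21e-10). The pair without proteinase activity that bind LGI proteins moved apart. ADAM22 was lower in both states (-2.59 ± 0.249 and -1.49 ± 0.221, adjusted p = 1.56e-07 and 3.17e-05). ADAM23 went from 5.5 ± 2.32 to 17.5 ± 3.12 normalized read counts unwounded (1.57 ± 0.297, adjusted p = 0.000207) and did not pass the filter after HDW, with 3.84 ± 2.49 and 11.5 ± 3.62 (1.60 by DESeq2, adjusted p = 0.00245). ADAM21 did not pass in either state (0.22 ± 0.292 and 0.17 ± 0.24), and ADAM32, with 5.27 ± 5.13 in WT and 8.61 ± 2.46 in GCN2KO unwounded cells, was too low to be tested between genotypes.

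The ADAMTSs were mostly low and split by genotype in both directions. ADAMTS15, which cuts aggrecan and versican, had 8, 11, 26, 24 and 19 raw counts in WT unwounded libraries and 1, 4, 1, 2 and 2 in GCN2KO unwounded libraries. After HDW these were 83, 38, 47, 65 and 57 and 3, 2, 7, 1 and 3. With a log2 fold change of -3.37 ± 0.388 (adjusted p = 1.21e-06) and -4.01 ± 0.35 (adjusted p = 1.76e-07) it was close to undetected in GCN2KO cells. ADAMTS15 passed the filter through the WT groups alone, so its tests are a description. ADAMTS7, a proteinase of the cartilage protein COMP, fell to 195 ± 34.6 from 580.1 ± 53.6 normalized read counts unwounded (-1.56 ± 0.116 and, after HDW, -1.32 ± 0.114, adjusted p = 7.25e-09 and 1.65e-07). ADAMTS13, which cuts von Willebrand factor, was lower as well (-1.97 ± 0.155 and -1.38 ± 0.174, adjusted p = 1.47e-08 and 6.5e-06). The procollagen N-proteinase ADAMTS3 was lower after HDW, where alone it passed the filter between genotypes (-1.34 ± 0.304, adjusted p = 0.00121). Unwounded it was a lower DE gene by DESeq2 (-1.33, adjusted p = 0.0199), with no filter (0.00517), in the fit of all 20 samples (0.00491) and without GCN2KO unwounded libraries 3 and 5 (-1.43, adjusted p = 0.019). In the other direction, the proteoglycan-cleaving ADAMTS1 had 437 ± 60.8 and 834 ± 206 normalized read counts in WT and GCN2KO unwounded cells and 622 ± 30.3 and 1317 ± 263 after HDW. Its log2 fold change passed the adjusted p in both states (0.93 ± 0.145 and 1.08 ± 0.116, adjusted p = 3.24e-05 and 1.35e-06) and the fold threshold after HDW, where leaving out GCN2KO HDW library 1 brought it to just under 1. Unwounded it reached that threshold without GCN2KO unwounded 1 or WT unwounded 4 (1.01 and 1.02) and without GCN2KO unwounded libraries 3 and 5 (1.06). ADAMTS17 went from 3, 1, 3, 5 and 3 to 16, 25, 22, 23 and 22 raw counts unwounded (2.5 ± 0.35 and, after HDW, 1.96 ± 0.281, adjusted p = 1.01e-05 and 2.28e-05). ADAMTS6, on chromosome 5 like ADAM19, did not pass (0.36 ± 0.229 and 0.06 ± 0.136). ADAMTS12 had 10.6 ± 3.05 and 5.38 ± 1.9 unwounded and did not pass the filter between genotypes. It was a lower DE gene unwounded with no filter (-1.01, adjusted p = 0.0445), in the fit of all 20 samples (-1.01, adjusted p = 0.0111) and without libraries 3 and 5 (-1.05, adjusted p = 0.0283).

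Of the inhibitors, TIMP1 and TIMP3 moved in opposite directions. TIMP1 (ENSG00000102265, chrX:47582408-47586789, plus strand, within the gene SYN1) had 904, 1040.3, 987, 953 and 976 normalized read counts in WT unwounded and 2007, 1942, 2179, 1811 and 1728 in GCN2KO unwounded libraries. It was 1.99-fold higher in GCN2KO unwounded cells (adjusted p = 5.1e-09), just under the fold threshold, which it passed without GCN2KO unwounded 4 or 5 or WT unwounded 2 (1.01 to 1.04 on the log2 scale) and by DESeq2, and 1.15-fold higher after HDW (log2 fold change 0.20 ± 0.0513, adjusted p = 0.00253). TIMP3, which binds to the matrix, had 28577, 26368, 29099.9, 26666 and 27444 in WT unwounded and 17584, 15365, 11785, 13365 and 12038 in GCN2KO unwounded libraries. Its log2 fold changes were -0.97 ± 0.101 and, after HDW, -0.59 ± 0.105 (adjusted p = 3.49e-07 and 0.000157), with no overlap between genotypes in either state. TIMP3 passed the fold threshold unwounded without GCN2KO unwounded 1 or 2 (-1.07 and -1.01) and when scaled by library size alone (-1.01). TIMP2, which takes part in proMMP2 activation with MMP14, was slightly higher (0.21 ± 0.0722 and 0.20 ± 0.06, adjusted p = 0.0177 and 0.00729). TIMP4 did not pass the filter unwounded (2.81 by DESeq2, adjusted p = 4.04e-05) and did not pass after HDW (0.37 ± 0.325, adjusted p = 0.319).

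**Figure D3:**
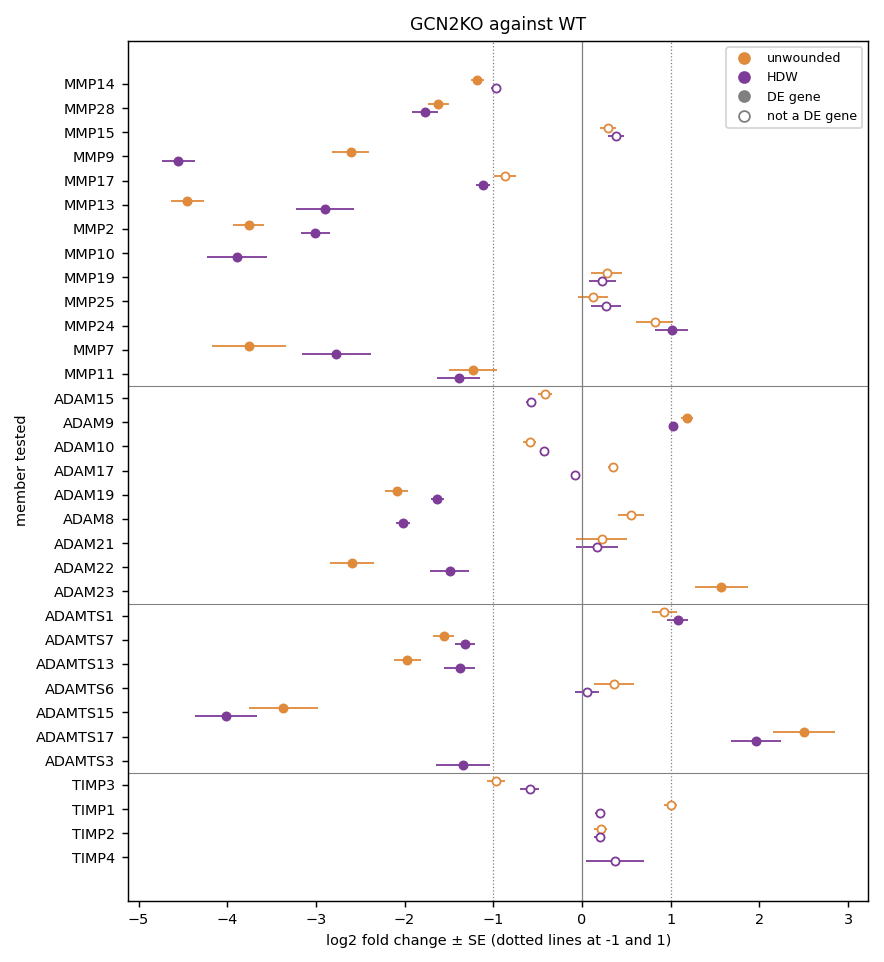
Log2 fold change of GCN2KO against WT with its SE for each member tested, unwounded and after HDW, with filled points for DE genes. More members lie left of 0 than right of it, from -4.55 for MMP9 after HDW to ADAMTS17 at the other end.

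The second comparison asked how wounding altered the members in each genotype. In WT cells, 4 of 31 members tested were higher DE genes 6 h after HDW, namely MMP9, MMP10, ADAM8 and ADAMTS15, and MMP13 and ADAM22 were lower. The background over 15348 genes was 2.62% higher and 1.55% lower. Here too, members above the filter's minimum in one group only had to differ to be tested, and among the 21 above it in every library 2 were higher, MMP9 and ADAM8, and 0 lower. By the adjusted p alone 14 members were higher and 8 lower, against a background of 26.1% and 25.2%. In GCN2KO cells no member of 30 tested was a DE gene, where the background was 0.475% higher and 0.196% lower of 15791 genes. DESeq2 also called 0 members there, and at an unadjusted p under 0.05 edgeR had 7 higher and 3 lower. By the adjusted p alone, 6 members were higher in GCN2KO cells and 0 lower, against a background of 11.9% and 10.8%. These were MMP9, ADAM8, ADAM19, ADAMTS1, ADAMTS6 and TIMP2. MMP28 lay just short of passing as lower (-0.48 ± 0.169, adjusted p = 0.0546) and passed by DESeq2 (adjusted p = 0.022), with no filter (0.00328), in the fit of all 20 samples (0.00968) and with DESeq2 size factors (0.0482).

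MMP10 (ENSG00000166670, chr11:102770502-102780628, minus strand) showed the largest log2 fold change after wounding in WT cells among the members tested. It lay above the filter's minimum in the 5 WT HDW libraries alone, so its tests are a description. It had 2, 3, 4, 2 and 4 raw counts in WT unwounded libraries and 86, 33, 54, 55 and 73 in WT HDW libraries, a log2 fold change of 3.76 ± 0.361 (adjusted p = 5.17e-07). In GCN2KO cells it had 2, 1, 1, 8 and 4 unwounded and 3, 3, 6, 2 and 4 after HDW and was too low to be tested. The WT HDW libraries stood alone, and the other 3 groups overlapped at a few counts. The interaction of genotype and HDW, which tests whether the 2 genotypes responded differently, was -3.64 ± 0.729 (adjusted p = 0.000752).

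ADAM8 (ENSG00000151651, chr10:133262420-133276868, minus strand) followed at a higher level. It had 57.6, 66, 65.2, 80.8 and 72.3 normalized read counts in WT unwounded libraries and 557, 697, 668, 638 and 691 in WT HDW libraries. The GCN2KO unwounded libraries had 81.9, 95, 96.5, 134 and 96.2 and the GCN2KO HDW libraries 168, 181, 157, 142 and 147. Wounded libraries lay above unwounded ones in both genotypes, by 9.27-fold in WT (log2 fold change 3.21 ± 0.092, adjusted p = 3.27e-12) and 1.58-fold in GCN2KO cells (log2 fold change 0.66 ± 0.129, adjusted p = 0.00395). The interaction was -2.57 ± 0.163 (adjusted p = 1.28e-10). MMP9 rose 6.45-fold in WT cells (log2 fold change 2.69 ± 0.164, adjusted p = 4.5e-09) from the values given above. In GCN2KO cells its libraries overlapped between states, with 0.74 ± 0.24 (adjusted p = 0.0383), which no longer passed without GCN2KO unwounded libraries 3 and 5 (0.45, adjusted p = 0.24), nor without GCN2KO unwounded 1, 3 or 5 or GCN2KO HDW 1, 2, 3 or 4 alone (adjusted p 0.0581 to 0.101). The MMP9 interaction of -1.94 ± 0.336 passed (adjusted p = 0.000174), also without GCN2KO unwounded libraries 3 and 5 (-2.26, adjusted p = 0.000264). ADAMTS15 rose by 1.21 ± 0.248 on the log2 scale in WT cells (adjusted p = 0.000798) and was too low for a test in GCN2KO cells. Its interaction did not pass (-0.63 ± 0.752, adjusted p = 0.587).

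The promoters of members that rose after HDW in WT cells, and of MMP7, shown because it holds the motif searched, were read from RefSeq (GRCh38.p14), which listed a promoter for 38 of the 65 members. The 250 bases before each start were searched on both strands for TGANTCA, the core of AP-1 sites, which reads the same on either strand. AP-1 is a JUN and FOS family factor long tied to MMP promoters. The motif was held by 6.57% of the 35116 promoters listed, and by 4 of the 38 members (10.5%), MMP7, MMP10, MMP20 and ADAMTS12. The 120 bases before the start of MMP10 and ADAM8, both higher after HDW, and of MMP7 are shown 5′ to 3′ on the gene's minus strand, with the motif in capitals.
MMP10 (chr11:102780629-102780748): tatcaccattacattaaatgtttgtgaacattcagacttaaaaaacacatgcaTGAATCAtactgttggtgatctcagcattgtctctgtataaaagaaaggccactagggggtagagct
ADAM8 (chr10:133276869-133276988): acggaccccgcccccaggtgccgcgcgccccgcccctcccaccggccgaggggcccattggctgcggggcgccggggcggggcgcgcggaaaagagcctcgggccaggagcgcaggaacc
MMP7 (chr11:102530748-102530867): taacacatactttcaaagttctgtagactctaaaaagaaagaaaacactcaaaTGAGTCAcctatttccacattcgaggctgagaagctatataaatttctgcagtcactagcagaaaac
In MMP10 and in MMP7 the motif began 67 bases before the start, as TGAATCA and TGAGTCA. The letters were not found in the 250 bases of ADAM8, nor in those of MMP11, MMP14, ADAM19, ADAM22, ADAMTS7 and ADAMTS13, which like MMP7 were lower in GCN2KO cells. TGATGNAA, a core of the amino acid response elements bound by ATF4 with a partner, was in no promoter of the 38 members on either strand and in 3.14% of all promoters. A match is a description of the sequence and no measure of binding. MMP10, which holds the motif, was also lower in GCN2KO cells after HDW, as was ADAMTS3, which does not. The 27 members with no promoter listed include MMP9 and ADAMTS15, and also MMP1, MMP2, MMP3, MMP13 and MMP28. The shares above leave these out.

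MMP13 and ADAM22 fell after HDW in WT cells. MMP13 went from 239 ± 25.2 to 75.2 ± 27.3 normalized read counts (SD, n = 5), with 96.9, 32.8, 65.8, 80.8 and 99.5 in the WT HDW libraries. All of these lay below the WT unwounded libraries, a log2 fold change of -1.69 ± 0.191 (adjusted p = 2.95e-06). In GCN2KO cells MMP13 was already low and had 9.17, 9.2, 8.39, 6.69 and 15.3 after HDW (-0.12 ± 0.326, adjusted p = 0.826). The interaction was 1.55 ± 0.462 (adjusted p = 0.0165) and did not pass without GCN2KO HDW library 5 (1.34, adjusted p = 0.0564). ADAM22 went from 74.9 ± 8.86 to 36.7 ± 5.86 (-1.02 ± 0.142, adjusted p = 2.43e-05), close enough to the threshold that leaving out WT unwounded 4 or 5 or WT HDW 4 or 5 took it to between -1.0 and -0.95. Its interaction of 1.11 ± 0.364 (adjusted p = 0.0291) did not pass without libraries 3 and 5 (0.71, adjusted p = 0.186), nor without GCN2KO unwounded 3, 4 or 5 or GCN2KO HDW 2 or 4 alone (adjusted p 0.0528 to 0.0824).

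Smaller shifts in WT cells included the abundant members. MMP14, MMP28 and TIMP3 were lower after HDW (-0.34 ± 0.0456, -0.34 ± 0.0716 and -0.41 ± 0.0373, adjusted p = 1.66e-05, 0.000918 and 2.7e-07), as was MMP2 (-0.46 ± 0.119, adjusted p = 0.00431). ADAM9, ADAM15 and ADAM17 were higher (0.28 ± 0.0335, 0.23 ± 0.0356 and 0.23 ± 0.0376, adjusted p = 6.16e-06, 7.07e-05 and 9.25e-05) and ADAM10 slightly lower (-0.11 ± 0.0359, adjusted p = 0.0155). In the fit of all 20 samples MMP28 (adjusted p = 0.0502) and ADAM10 (0.141) did not pass, nor did ADAM10 with no filter (0.0611). In GCN2KO cells MMP14 (-0.11), TIMP3 (-0.02), MMP2 (0.29), ADAM9 (0.14), ADAM10 (0.07) and ADAM15 (0.09) did not pass. The interaction did not pass for MMP14 (0.21, adjusted p = 0.116), TIMP3 (0.38, 0.0697), MMP28 (-0.15, 0.623), ADAM9 (-0.15, 0.195) or ADAM10 (0.17, 0.142). With library size alone it passed for MMP14 (0.049), ADAM10 (0.0427) and TIMP3 (0.0387), and for TIMP3 also with no filter (0.0152). TIMP1 had 1476, 1458, 1649.8, 1659 and 1760.0 normalized read counts in WT HDW libraries, each above all WT unwounded libraries (0.72 ± 0.054, adjusted p = 4.12e-08). In GCN2KO cells it had 1886, 1809, 1842, 1834 and 1849 after HDW, within the range of the unwounded libraries (-0.06 ± 0.0666, adjusted p = 0.558), and the interaction passed (-0.79 ± 0.0876, adjusted p = 6.61e-07). ADAM17 also responded differently in the 2 genotypes (-0.42 ± 0.0706, adjusted p = 0.000117), being higher after HDW in WT cells and -0.17 ± 0.0609 in GCN2KO cells (adjusted p = 0.0533). That second value passed by DESeq2 (adjusted p = 0.0132), with DESeq2 size factors (0.0428), in the fit of all 20 samples (0.00626) and with a mean of 50 counts required (0.0338). ADAMTS6 nearly reached the fold threshold in WT cells (0.99 ± 0.146, adjusted p = 4.13e-05, and 1.01 to 1.06 without WT HDW 1 or 2 or WT unwounded 2 or 5) and passed the adjusted p in GCN2KO cells (0.71 ± 0.207, adjusted p = 0.0257), and its interaction did not pass (-0.30 ± 0.262, adjusted p = 0.444). TIMP2 rose both in WT (0.29 ± 0.0586, adjusted p = 0.000702) and GCN2KO cells (0.30 ± 0.0725, adjusted p = 0.0116).

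In all, 2 of 35 members tested had a higher and 4 a lower interaction past both thresholds, against a background of 1.16% and 2.15% of 16536 genes. Of the 21 members above the minimum in every library, 0 were higher and 2 lower, MMP9 and ADAM8. By the adjusted p alone 4 were higher and 6 lower, against 11.2% and 12.5%. The fourth of the lower ones beside MMP9, MMP10 and ADAM8 was TIMP4 (-2.38 ± 0.644, adjusted p = 0.00885). It rested on few reads, with 1, 0, 3, 3 and 2 raw counts in WT unwounded, 4, 13, 13, 6 and 7 in WT HDW, 10, 6, 18, 12 and 35 in GCN2KO unwounded and 16, 8, 13, 6 and 8 in GCN2KO HDW libraries. GCN2KO unwounded library 5 was the highest, and without libraries 3 and 5 of that group the interaction was -1.78 (adjusted p = 0.035). TIMP4 shares 14.2% of its exonic bases with SYN2 (mean 7.85 counts), so its reads are uncertain. For HDW in WT cells TIMP4 did not pass the filter. It was higher there by DESeq2 (1.76, adjusted p = 0.0238), with no filter (1.7, 0.0103) and in the fit of all 20 samples (1.69, 0.0178). ADAM19 (0.47 ± 0.153, adjusted p = 0.0275) and MMP2 (0.75 ± 0.273, adjusted p = 0.0466) passed the adjusted p alone, and MMP2 did not without libraries 3 and 5 (0.43, adjusted p = 0.32), nor in 13 of the 20 fits that left out one library. ADAM15 passed the adjusted p without libraries 3 and 5 (-0.27, adjusted p = 0.0183) and not with them (-0.15 ± 0.0914, adjusted p = 0.235).

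**Figure D4:**
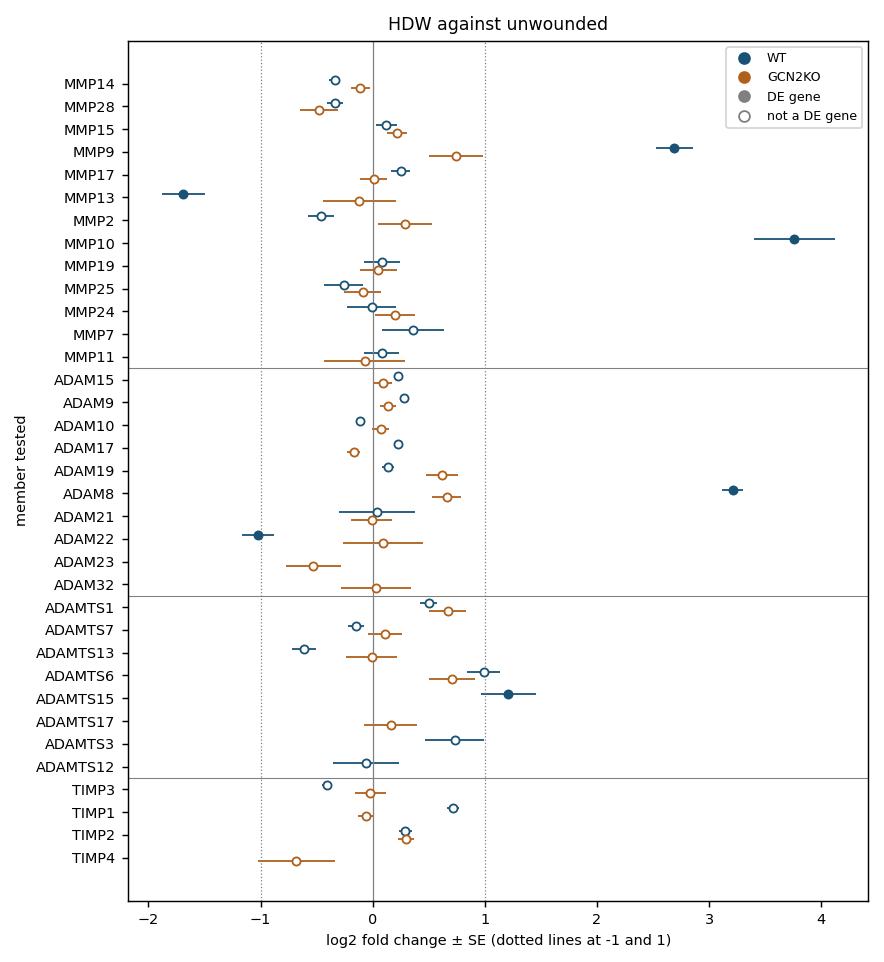
Log2 fold change of HDW against unwounded with its SE for each member tested, in WT and in GCN2KO cells, with filled points for DE genes. Filled points occur in WT cells alone, from -1.69 for MMP13 to 3.76 for MMP10, while GCN2KO values run from -0.68 for TIMP4 to 0.74 for MMP9.

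A run of 9 MMP genes lies side by side over 435 kb of chromosome 11 (chr11:102520508-102955732), with no other protein-coding gene between them. In order of position these are MMP7, MMP20, MMP27, MMP8, MMP10, MMP1, MMP3, MMP12 and MMP13. They did not move as one. MMP27 was silent, MMP20, MMP3 and MMP12 were at most a few counts, and MMP10 and MMP13 changed in opposite directions after HDW in WT cells. MMP1, the interstitial collagenase that keratinocytes make on contact with dermal collagen, had 1, 0, 2, 4 and 1 raw counts in WT unwounded and 21, 18, 10, 18 and 35 in WT HDW libraries. The GCN2KO libraries had 4, 0, 5, 3 and 4 unwounded and 1, 4, 7, 1 and 4 after HDW. All WT HDW libraries were above the rest, but the gene did not pass the filter. Without the filter its log2 fold change for HDW in WT cells was 3.09 (adjusted p = 7.36e-08) and by DESeq2 3.18 (adjusted p = 3.22e-06), and its interaction without the filter was -3.06 (adjusted p = 0.00377). Between genotypes after HDW, MMP1 had -2.44 without the filter (adjusted p = 3.94e-06) and -2.48 by DESeq2 (adjusted p = 3.79e-06). In some fits that left out 1 library it passed the filter and was a DE gene in these comparisons. MMP8, the neutrophil collagenase, is named here for its values. It had 0 counts in all 5 WT unwounded libraries and 9, 6, 14, 6 and 9 in the GCN2KO unwounded libraries, at least 11.6-fold higher if 3 counts over the WT group are taken as the limit that 0 allows. After HDW it had 0, 2, 0, 0 and 0 in WT and 8, 7, 6, 1 and 7 in GCN2KO libraries. By DESeq2 its log2 fold change was 5.21 unwounded (adjusted p = 2.14e-06) and 3.9 after HDW (adjusted p = 0.000692). MMP8 thus ran against its neighbours MMP7 and MMP13, which were lower in GCN2KO cells in both states. It also ran against MMP10 after HDW, the state in which MMP10 was tested and lower. The other genes tested within 5 Mb of MMP7 had a median log2 fold change of -0.18 unwounded and -0.10 after HDW. MMP10 lies within the long gene WTAPP1, and whether the counting used strand is not stated.

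**Figure D5:**
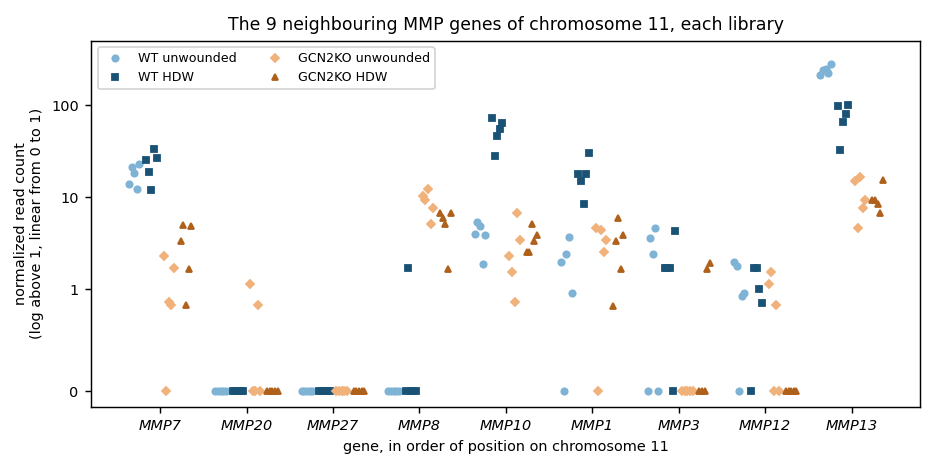
Normalized read count of each library for the 9 neighbouring MMP genes in order of position on chromosome 11, on an axis that is linear from 0 to 1 and logarithmic above. MMP10 and MMP1 are highest in WT HDW libraries, MMP13 and MMP7 are higher in WT than in GCN2KO libraries, and MMP8 is above 0 in each GCN2KO library and in 1 WT library.

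Genes that act with the metalloproteinases were taken from lists chosen with earlier results of these data known. Their DE counts stand beside the backgrounds over all genes, 8.21% higher and 8.22% lower unwounded and 7.1% and 7.83% after HDW between genotypes, 2.62% and 1.55% for HDW in WT, 0.475% and 0.196% in GCN2KO cells, and 1.16% and 2.15% for the interaction. Of 28 genes for activation and surface control of metalloproteinases (plasminogen activators, kallikreins, proprotein convertases and inhibitors), 22 were tested unwounded between genotypes, with 3 higher and 3 lower DE genes, and 21 after HDW, with 2 higher and 3 lower. KLK6, a kallikrein, was far higher unwounded (log2 fold change 4.81 ± 0.269, adjusted p = 3.45e-10) and after HDW (3.76 ± 0.196, adjusted p = 1.65e-09). PLAU, the urokinase that makes plasmin, an activator of proMMPs, was lower unwounded (-1.54 ± 0.095, adjusted p = 9.5e-10), and TFPI2, a matrix-bound inhibitor of plasmin, was lower after HDW (-3.32 ± 0.0997, adjusted p = 2.03e-11). After HDW 4 of 20 were higher DE genes in WT cells, led by PLAT, the tissue plasminogen activator (2.39 ± 0.0852, adjusted p = 2.6e-11), and 1 of 22 in GCN2KO cells, SERPINB2, an inhibitor of plasminogen activators (1.28 ± 0.177, adjusted p = 0.000552). The interaction was lower for 3 of 23, with TFPI2 first (-1.84 ± 0.143, adjusted p = 3.85e-09). The list medians ran from -0.25 to 0.25 beside -0.01 to 0.00 over all genes. None of the 9 iRhoms and TspanC8 tetraspanins, which escort ADAM17 and ADAM10 to the surface, was a DE gene in any comparison by edgeR or DESeq2. By the adjusted p alone 2 were higher and 5 lower in GCN2KO unwounded cells, 3 higher and 5 lower after HDW, 3 higher and 4 lower with HDW in WT cells, and 0 with HDW in GCN2KO cells (1 lower at an unadjusted p under 0.05).

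Of 30 membrane proteins shed by ADAMs, 26 were tested between genotypes. In unwounded cells 3 were higher and 4 lower DE genes, led by the adhesion molecule L1CAM (2.43 ± 0.145, adjusted p = 6.94e-10) and the Notch ligand DLL1 (-2.53 ± 0.132, adjusted p = 1.63e-10). After HDW 2 were higher, again with L1CAM first (1.90 ± 0.122, adjusted p = 1.01e-08), and 3 lower, with the hemidesmosomal collagen COL17A1 first (-1.25 ± 0.0527, adjusted p = 3.2e-10). The EGF receptor ligand HBEGF led the 2 of 25 that were higher after HDW in WT cells (1.41 ± 0.102, adjusted p = 2.71e-08), while none of 25 was a DE gene in GCN2KO cells by edgeR or DESeq2 (11 higher and 3 lower at an unadjusted p under 0.05). EREG, another such ligand, had the lower interaction (-1.39 ± 0.134, adjusted p = 9.11e-08) and DLL1 the higher one (1.08 ± 0.203, adjusted p = 0.000404), among 2 in each direction. Of 21 matrix proteins that MMPs and ADAMTSs cut, 13 and 14 were tested, and 6 and 9 were lower DE genes in GCN2KO cells unwounded and after HDW. The list medians were -0.92 and -1.21, and COL4A2, a basement membrane collagen, led both (-2.54 ± 0.131, adjusted p = 1.48e-10, and -2.49 ± 0.0749, adjusted p = 2.03e-11). The laminin chain LAMB3 was the 1 higher DE gene, unwounded (1.09 ± 0.121, adjusted p = 7.42e-07). After HDW in WT cells 3 of 14 were higher DE genes, and the proteoglycan DCN was the 1 lower (-1.23 ± 0.251, adjusted p = 0.000756), while none of 13 was a DE gene in GCN2KO cells by either tool (8 higher and 1 lower at an unadjusted p under 0.05). Of 11 ADAMTS-like and related secreted proteins 7 were tested, with 2 higher and 3 lower DE genes unwounded and 2 higher and 4 lower after HDW. The fibrillin FBN2 led the higher ones (1.14 ± 0.152, adjusted p = 6.02e-06, and 1.48 ± 0.0835, adjusted p = 3.2e-09), and PAPLN, which carries an ADAMTS-like cassette, and the ADAMTS-like THSD4 led the lower ones (-3.02 ± 0.0976, adjusted p = 1.27e-12, and -1.07 ± 0.0519, adjusted p = 9.16e-10). None of these was a DE gene with HDW in either genotype by either tool (2 higher and 1 lower in WT and 4 higher in GCN2KO cells at an unadjusted p under 0.05).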

How the data were processed

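RNA of 20 NTERT libraries was measured by RNA-seq in 4 groups of 5, taken from the sample labels. Per the study's methods and the submitters' processing notes, the authors trimmed reads with Trimmomatic v.0.36, aligned them to GRCh38 with STAR v.2.5.2b and counted read pairs on exons with featureCounts (Subread v.1.5.2). What the authors deposited are raw counts, neither normalized nor filtered, in one column for each library. Strandedness and the annotation release are not given in the sources used here, so genes with overlapping exons are uncertain to that extent. Of 57500 Ensembl genes listed, 56410 were matched to GENCODE release 44 (GRCh38) for symbols, positions and merged exon lengths. FPKM values were computed from the counts with TMM effective sizes and these lengths. Totals were 14083504 to 34611570 counts per library, so low members carry most counting error.

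All tests on the counts were run here in edgeR 4.0.16 under R 4.3.3 (TMM, glmQLFit, glmQLFTest, filterByExpr with a minimum count of 10 and total of 15), 10 samples per comparison and all 20 for the interaction, with Benjamini-Hochberg adjustment over all genes tested. SEs are the log2 fold change divided by the square root of F. The DE thresholds were those of the study, 1 on the absolute log2 scale and 0.05 for the adjusted p. The text names every DE member, TIMP1 to TIMP4 and 10 fixed MMPs and ADAMs in all comparisons, the 3 highest of each family per length, and from each list the DE gene with the smallest adjusted p in each direction, except that the values of one such gene are not reported here. The members and lists were chosen with earlier results of these data known. Alternatives were DESeq2 1.42.0, its size factors, scaling by library totals, dropping the filter, requiring a mean of 50 counts, a replicate block, one fit of all 20 samples, adjusted p alone and each library left out. The fits were tested on simulated data in which 200 genes changed. For HDW in WT, 200 of these and 0 unchanged genes were called (15373 genes), and for the interaction 200 and 2 (16278 genes). The changed genes all had a mean of at least 50 counts and changes set beyond the DE fold threshold. Every gene was given the same spread between replicates, so these totals do not measure recovery over a range of levels or spreads. Recovery at the counts and spread of the low members was not tested. Tables and figures used Python 3.11, pandas 2.3.3 and matplotlib 3.10.9.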

Additional observations from a re-analysis of the deposited data

Results flagged for a closer look

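Of 140 groups of 5 libraries examined, one for each expressed member in each of the 4 groups, 12 had a library far from its other 4 by Dixon's criterion, which chance meets in about 1 of 20 groups. GCN2KO HDW library 5 stood apart for 3 members, with 26.8 normalized read counts of MMP25 (others 40.1 to 41.1), 1618 of MMP28 (869.9 to 1039) and 21242 of ADAM9 (24321 to 25455). GCN2KO unwounded library 2 had 6.13 of ADAMTS15 (0.877 to 1.69) and 38.3 of ADAMTS17 (18.2 to 19.3). WT unwounded library 3 had 11210.3 of ADAM10 (10271 to 10541) and 59.2 of ADAM22 (76.7 to 79.9). The other flags were single ones. WT HDW library 5 had 26.8 of MMP11 (35.9 to 37.1), WT HDW library 4 had 26.9 of ADAMTS3 (17.7 to 19.9) and GCN2KO unwounded library 4 had 134 of ADAM8 (81.9 to 96.5). GCN2KO HDW library 3 had 5.87 of ADAMTS15 (1.67 to 2.87) and GCN2KO HDW library 1 had 32.5 of ADAMTS17 (20.1 to 23.5).

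The response to HDW differed between GCN2KO and WT cells for 10 members by edgeR's interaction test at an adjusted p of at most 0.05. Of the 35 members tested, 4 were higher and 6 lower, beside 11.2% and 12.5% of the 16536 genes tested. As log2 fold changes, GCN2KO response minus WT response, the negative values were -1.94 for MMP9, -3.64 for MMP10, -2.57 for ADAM8, -0.42 for ADAM17, -0.79 for TIMP1 and -2.38 for TIMP4. The positive values were 0.75 for MMP2, 1.55 for MMP13, 0.47 for ADAM19 and 1.11 for ADAM22. MMP2, MMP13 and ADAM22 missed the adjusted p in 13, 1 and 5 of the 20 fits that left out one library. TIMP4 rested on few reads in every group, and MMP10 on few outside WT HDW.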

How the results depend on the processing

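The replicate numbers did not pair the samples. Same-numbered libraries had a mean correlation of 0.0228 and 0.0332 between genotypes and of 0.0107 and -0.109 between states, and at most 2 of 5 correlated best with their own number. With the replicate block the counts of higher and lower DE members were 3 and 12 unwounded and 4 and 15 after HDW between genotypes, 5 and 2 for HDW in WT, 0 and 0 in GCN2KO cells, and 2 and 4 for the interaction. Over all genes the block gave 2546, 2373, 641, 102 and 528 DE genes. In that replicate block the TIMP2 interaction turned to 0.00357, the MMP9 value for HDW in GCN2KO cells no longer passed (adjusted p = 0.0576), that of MMP28 passed as lower (-0.50, adjusted p = 0.0422), and ADAMTS6 became a DE gene in WT cells (1.01).

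The adjusted p alone gave 10 and 7 higher members between genotypes, 14 higher and 8 lower for HDW in WT, 6 higher in GCN2KO cells and 4 higher interactions, and over all genes 10213, 11367, 7878, 3586 and 3926 calls. With no filter 5 and 7 members were higher between genotypes and 7 for HDW in WT, with 3920, 3681, 998 and 199 DE genes. DESeq2 had 6, 7 and 7 higher members there. Requiring a mean of at least 50 counts left 19 members expressed, with 1 and 2 higher between genotypes, 8 lower after HDW, 2 higher for HDW in WT, 1 higher and 2 lower interactions, and 1630, 1328, 371, 40 and 280 DE genes, since fewer genes were tested. Without GCN2KO unwounded libraries 3 and 5, chosen after seeing the data, 1 member had a higher interaction, and small values turned sign for HDW in GCN2KO cells (MMP2 -0.02, MMP13 0.12, ADAM10 -0.01, ADAM15 -0.01, ADAMTS7 -0.06, ADAMTS13 0.03 and EIF2AK4 0.03) and in the interaction (MMP15 -0.02). ADAMTS1 then missed the threshold for HDW in GCN2KO cells (0.54, adjusted p = 0.0959). Library size alone turned ADAMTS13 for HDW in GCN2KO cells (0.0049) and the TIMP2 interaction (0.06), and EIF2AK4 for HDW in WT passed (-0.10). None of the values that turned sign had passed the test. The cause was not tested.

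With one library left out, the counts were 3 to 5 higher members unwounded (5 without WT unwounded 2) and 2 to 5 after HDW (2 without GCN2KO HDW 1) between genotypes, 1 to 2 lower for HDW in WT and 1 to 2 higher interactions. Values that turned sign ran from -0.33 to 0.11 for MMP13, from -0.13 to 0.15 for ADAMTS13, from -0.15 to 0.08 for TIMP3 and from -0.06 to 0.00199 for EIF2AK4 for HDW in GCN2KO cells, and from -0.06 to 0.03 for TIMP2 and -0.02 to 0.05 for EIF2AK4 in the interaction. TIMP2 between unwounded genotypes missed the threshold without WT unwounded 5 (0.19, adjusted p = 0.053), and ADAM17 after HDW passed it without GCN2KO HDW 5 (-0.10, adjusted p = 0.0314).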

Other observations

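Several low members differed between groups in raw counts without passing the filter between genotypes, MMP1 and MMP8 as given above. With no filter MMP3 was lower in GCN2KO unwounded cells (-4.1, adjusted p = 0.00247). After HDW MMP12 was lower (-3.36, adjusted p = 0.0345) and ADAM20 higher (3.46, adjusted p = 0.0252), each of the 3 on few counts. ADAM28 and ADAM32 are named here after their values were seen. ADAM28, a disintegrin known from lymphocytes and epithelia, had 0, 2, 8, 4 and 1 raw counts in WT unwounded and 0, 0, 1, 1 and 0 in GCN2KO unwounded libraries, and 2, 2, 1, 3 and 4 and 0, 0, 0, 1 and 0 after HDW. By DESeq2 its log2 fold change between genotypes was -3.13 unwounded (adjusted p = 0.0309) and -2.97 after HDW (adjusted p = 0.0289). ADAM32, an expressed member without a known substrate, went the other way after HDW, with 4, 5, 5, 3 and 1 raw counts in WT and 7, 9, 9, 6 and 14 in GCN2KO libraries, a log2 fold change of 1.47 by DESeq2 (adjusted p = 0.0092).

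The 20 weak members had at most 143 counts each over all 20 libraries, and smaller differences in them were not detectable at this depth.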
